A study of Homo sapiens with 6 samples.

Results

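A set of 10 genes of the cyclin D and CDK4/6 step of the cell cycle, out of 19903 genes listed in each expression table, was followed across 6 RNA sequencing libraries. They were chosen by symbol: the INK4 inhibitors CDKN2A, CDKN2B and CDKN2C, the CIP/KIP inhibitors CDKN1B and CDKN1C, the D cyclins CCND1, CCND2 and CCND3, and the kinases CDK4 and CDK6. All 10 had a row in every library, and 9 of 10 reached the mean of 1 FPKM required for testing. The study introduced malin, the ubiquitin ligase encoded by NHLRC1 and mutated in Lafora disease, or an empty vector into 3 human lines labelled as lung cancer lines. A549 is a lung adenocarcinoma line with a known loss of CDKN2A, H1299 is a non-small-cell lung carcinoma line, and H2030 is a lung adenocarcinoma line. The 6 groups were A549, H1299 and labelled H2030 cells, each with either vector, all at passage 5, with 1 library per line and vector. The labels do not give the promoter of the vector, or say whether cultures or clones were independent. The p-values set a difference only against the spread between these libraries left after line and vector. That spread is how far the vector difference varied between lines, and it may be technical or particular to a line.

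Entry into S phase is held back by the retinoblastoma protein RB, which binds E2F transcription factors. Cyclin D bound to CDK4 or CDK6 phosphorylates RB and begins to release E2F. INK4 proteins bind CDK4 and CDK6 and displace cyclin D, whereas CIP/KIP proteins bind complexes of cyclins with CDKs and chiefly inhibit CDK2. Loss of the INK4 locus on chromosome 9 is frequent in lung cancer, and it often removes the neighbouring gene MTAP as well.

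The clearest contrast between the lines lay in this locus, so the stretches before its start sites are shown. CDKN2A has separate first exons for p16INK4a and for ARF, which share later exons in different reading frames, and a gene-level value cannot tell the transcripts apart. CDKN2A was placed at chr9:21967753-21995301 and CDKN2B at chr9:22002903-22009363, both on the minus strand, in GENCODE 29 (GRCh38, the same assembly as hg38). The 250 bases before each start, from RefSeq on GRCh38.p14, are printed 5′ to 3′ on the minus strand, with the GC box, GGGCGG or its reverse complement, in capitals.

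CDKN2A, ARF start (chr9:21995325-21995574): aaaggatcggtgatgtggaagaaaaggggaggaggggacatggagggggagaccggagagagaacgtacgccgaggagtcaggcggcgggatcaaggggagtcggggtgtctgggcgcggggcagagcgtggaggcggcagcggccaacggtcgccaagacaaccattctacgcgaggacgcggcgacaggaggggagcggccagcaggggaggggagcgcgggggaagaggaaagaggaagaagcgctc
CDKN2A, p16INK4a start (chr9:21974858-21975107): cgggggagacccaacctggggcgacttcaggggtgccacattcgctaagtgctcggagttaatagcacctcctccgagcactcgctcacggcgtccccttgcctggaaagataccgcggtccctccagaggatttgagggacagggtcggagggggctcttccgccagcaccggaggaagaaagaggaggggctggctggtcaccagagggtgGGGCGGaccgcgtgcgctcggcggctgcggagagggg
CDKN2B start (chr9:22009306-22009555): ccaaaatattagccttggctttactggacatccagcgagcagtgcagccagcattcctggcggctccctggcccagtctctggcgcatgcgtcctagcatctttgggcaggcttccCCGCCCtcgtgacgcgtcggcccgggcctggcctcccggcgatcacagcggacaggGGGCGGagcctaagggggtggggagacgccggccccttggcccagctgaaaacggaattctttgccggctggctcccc

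The ARF window held 24 CpG dinucleotides, the p16INK4a window 20 and the CDKN2B window 18, against a median of 11 over the 35116 windows of the table. The GC box was matched 0, 1 and 2 times in them, and 42.6% of all windows held at least 1 match on either strand. RefSeq windows were held for 7 of the 10 genes. None of their 13 windows had an E2F motif (TTTCCCGC, TTTCGCGC, TTTGCCGC or TTTGGCGC, either strand), which 2.79% of all windows had. These matches describe letters in the reference and were not measured in the cells.

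The tables held FPKM, the authors' fragment numbers scaled to transcript length and library total. Estimated depth was 8300000 to 10700000 fragments per library. NHLRC1 was 1.21 and 6.82 FPKM in A549 with the empty and malin vector, 2.85 and 119.2 in H1299, and 0.18 and 3.69 in the pair labelled H2030, so it was higher with malin in each. The table of the malin library labelled H2030 is headed with a short form of HEK293T, a line from human embryonic kidney, and the pair is called labelled H2030 throughout. Summed over 9 carcinoma and epithelial markers, FPKM was 5072 to 5686 in A549, 1369 to 1381 in H1299 and 163 to 187 in labelled H2030, where KRT19 was listed at 0 and EPCAM, at 8.55 and 5.41, was higher than in the other lines. Neuronal and embryonic kidney markers (10 genes) summed to 35.3 to 35.6, 65.8 to 67.7 and 86.5 to 118, in the same line order. In labelled H2030 NEFM was 30.5 and 52.6, but INA, at 9.30 and 6.12, was lower than in the other lines, and PAX8 was listed at 0. Of 10 lung lineage markers, 8 were in the tables and summed to 17.8 to 19.2 in A549, 8.87 to 9.56 in H1299 and 25.2 to 30.4 in labelled H2030. GATA6 made up 22.4 and 14.9 of the labelled H2030 sums and NKX2-1 1.85 and 3.78, with SFTPB and SFTPC at 0.11 FPKM or less in every library. The part of line identity in any difference below was not tested.

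CDKN2A and CDKN2B, which encode p16INK4a with ARF and p15INK4b, were nearly absent from A549 and present in both other lines. CDKN2A was 0.09 FPKM with the empty vector and listed at 0 with malin in A549. It was 58.9 and 67.9 FPKM in H1299, and 63.2 and 78.8 in labelled H2030. The A549 libraries thus lay far below the other 4, and the H1299 and labelled H2030 libraries overlapped. The A549 values correspond to an estimated 1 and 0 fragments, against 586 to 872 in the other libraries. These estimates rest on the length of 1 transcript (1218 bases) of the 4 listed for CDKN2A. A549 is the line with the known loss of CDKN2A, and the part of that loss in the A549 values was not tested. In bulk RNA of a line, fewer cells with a transcript and less RNA per cell cannot be told apart.

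CDKN2B was listed at 0 and at 0.03 FPKM in A549. It was 11.3 and 13.3 FPKM in H1299 and 4.55 and 3.10 in labelled H2030. The 3 lines did not overlap, with H1299 highest and labelled H2030 between. On the log2(FPKM+1) scale CDKN2A was higher than in A549 by 5.94 ± 0.14 (SE) in H1299 and by 6.10 ± 0.14 in labelled H2030 (limma adjusted p = 5.02e-06 and 5.3e-06). CDKN2B was higher by 3.70 ± 0.19 and 2.23 ± 0.19 (limma adjusted p = 4.8e-05 and 0.000194). Both genes reached the mean of 1 FPKM only through H1299 and labelled H2030, so they had to differ from A549. The sizes depend on the pseudocount where A549 is near 0: at a pseudocount of 5 they were 3.76 and 3.90 for CDKN2A and 1.78 and 0.81 for CDKN2B. CDKN2B was 3.21-fold higher in mean FPKM in H1299 than in labelled H2030 (log2 difference labelled H2030 minus H1299 -1.47 ± 0.19, limma adjusted p = 0.001). CDKN2A did not pass there (0.16 ± 0.14, limma adjusted p = 0.367), and median-of-ratios scaling turned its sign (-0.11).

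**Figure D1:**
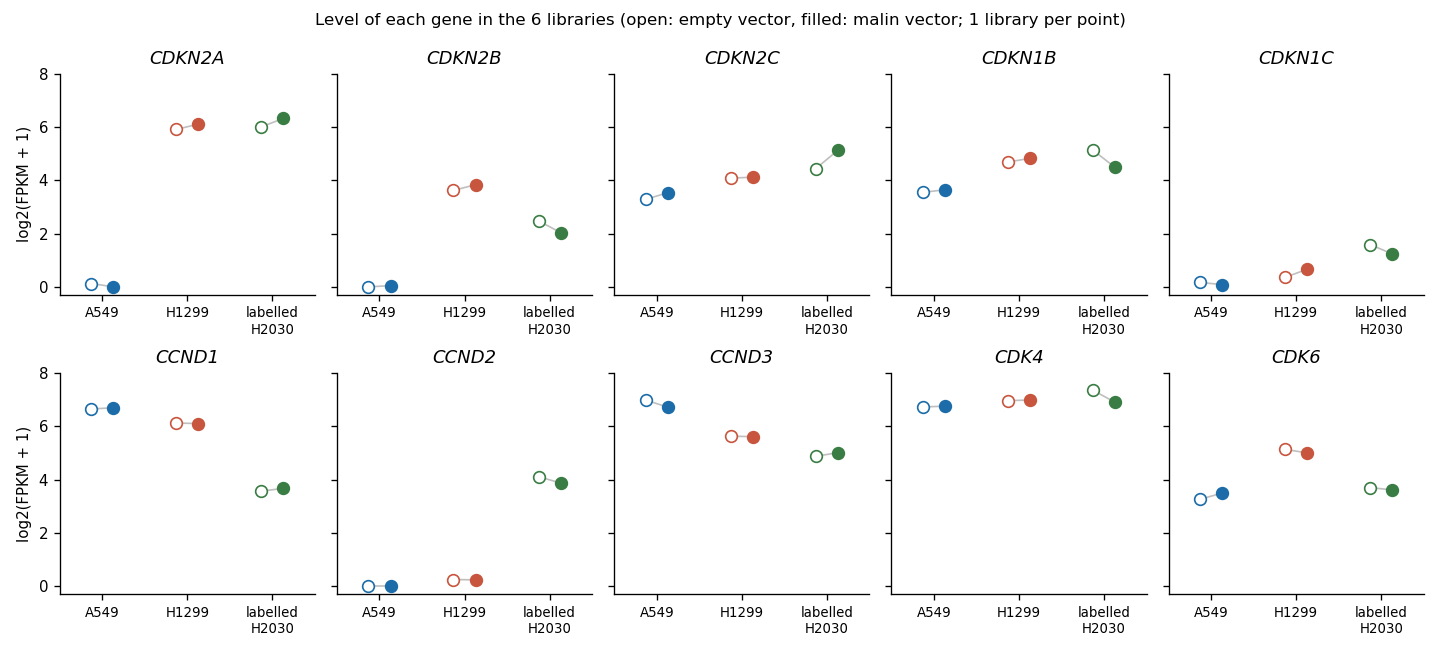
Level of each of the 10 genes on the log2(FPKM + 1) axis in the 6 libraries, by line, with open points for the empty vector, filled points for malin, and a line joining the pair. CDKN2A and CDKN2B sit at the bottom of the axis in A549, CCND2 stands out in labelled H2030, and the vectors of a line lie close together for most genes.

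The low level in A549 extended to MTAP, the methylthioadenosine phosphorylase gene that ends 26.6 kb from CDKN2A in the RefSeq table of GRCh38.p14, from which all distances here are taken (MTAP chr9:21802636-21941115, CDKN2A chr9:21967752-21995324). MTAP was 1.84 and 1.45 FPKM in A549, 24.9 and 25.8 in H1299, and 13.4 and 11.5 in labelled H2030. No 2 lines overlapped, and mean FPKM was 15.4-fold higher in H1299 and 7.57-fold higher in labelled H2030 than in A549. The log2 differences were 3.32 ± 0.13 and 2.35 ± 0.13 (SE; limma adjusted p = 2.01e-05 and 5.1e-05). Unlike CDKN2A, MTAP was not at the floor in A549.

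Of 21 genes of the tables within 1 Mb of CDKN2A, itself included, 10 reached 1 FPKM in some library. The antisense transcript CDKN2B-AS1 was 0.61 and 0.42 FPKM in A549, 1.77 and 2.17 in H1299, and 2.56 and 1.99 in labelled H2030. Its exons share 341 of the 4329 exon bases of CDKN2A on the other strand. The use of strand in counting is not given in these sources, so its value and that of CDKN2A could mix. Among the genes farther out that reached 1 FPKM, the A549 libraries overlapped or exceeded those of at least 1 other line. KLHL9, which encodes an adaptor of a cullin ubiquitin ligase 632 kb from CDKN2A, was 15.0 and 15.1 FPKM in A549 and 8.18 to 14.1 in the other 4 libraries. It was lower in H1299 than in A549 by a log2 difference of -0.74 ± 0.12 (limma adjusted p = 0.0034). FOCAD, 972 kb away, was 10.7 to 13.9 FPKM in all libraries, with A549 and H1299 overlapping. MIR31HG, the host transcript of a microRNA 408 kb away, was highest in A549 at 5.96 and 5.49 FPKM. DMRTA1, a DMRT-family transcription factor gene 452 kb away on the far side, was 1.48 and 1.67 FPKM in A549 and 1.49 to 2.70 in the others, and passed no contrast between lines (smallest limma adjusted p = 0.0555). Of 10 interferon genes in the window, 9 stayed below 1 FPKM in every library.

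**Figure D2:**
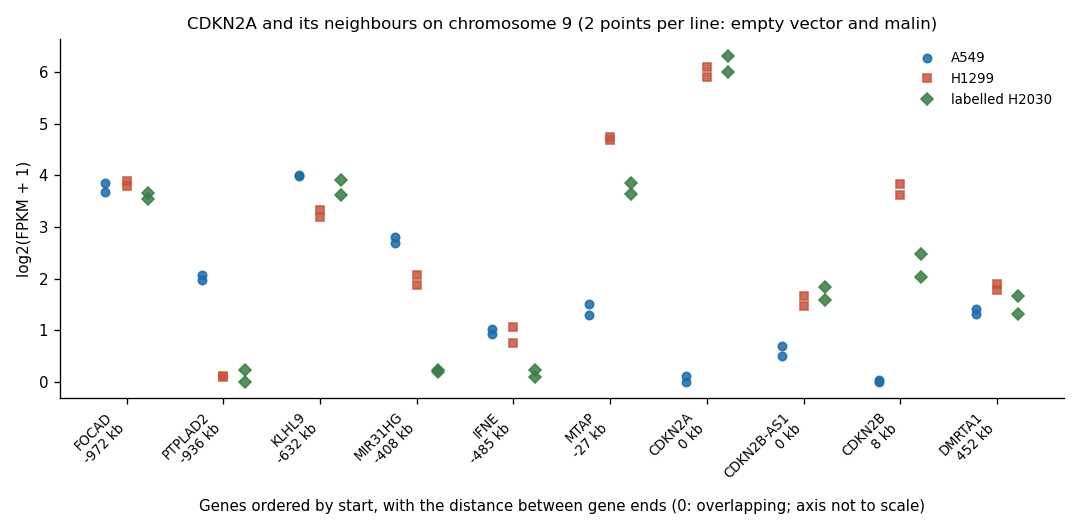
Level on the log2(FPKM + 1) axis of the 10 genes within 1 Mb of CDKN2A that reached 1 FPKM in some library, ordered by start, with the distance to CDKN2A under each name. Each line has 2 points, 1 per vector. A549 lies below the other lines at MTAP, CDKN2A, CDKN2B-AS1 and CDKN2B, and overlaps or exceeds at least 1 of them at the other genes.

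CDKN2C, which encodes p18INK4c from chr1:50960745-50974633, was the only INK4 member with an appreciable level in A549. It was 8.71 and 10.6 FPKM in A549, 15.9 and 16.3 in H1299, and 20.6 and 33.9 in labelled H2030. The lines followed each other without overlap, and the labelled H2030 pair was spread widest. CDKN2C was 1.67-fold higher in H1299 than in A549 in mean FPKM (log2 0.69 ± 0.17, limma adjusted p = 0.015). The log2 difference was 0.74, 0.64 and 0.47 without the empty-vector A549, the malin A549 or the empty-vector H1299 library, where it no longer passed (limma adjusted p = 0.0697, 0.105 and 0.159). It was 2.83-fold higher in labelled H2030 than in A549 (1.37 ± 0.17, limma adjusted p = 0.000836). Against H1299 it was 1.69-fold higher (0.68 ± 0.17, limma adjusted p = 0.0142), but 0.42 with median-of-ratios scaling and 0.47 without the malin H1299 library on the log2 scale, and neither passed (limma adjusted p = 0.0847 and 0.154). The difference was 0.41 without the library with the HEK293T heading and 0.96 without the empty-vector library of that pair. Each of these fits leaves 1 labelled H2030 library, so only the size is given.

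The CIP/KIP members differed in level by a wide margin. CDKN1B, which encodes p27 (chr12:12715058-12722371), was 10.7 and 11.5 FPKM in A549, 24.7 and 27.3 in H1299, and 33.9 and 21.3 in labelled H2030. A549 lay below both other lines, which overlapped. Mean FPKM was 2.34-fold higher in H1299 (log2 1.16 ± 0.21, limma adjusted p = 0.0042) and 2.49-fold higher in labelled H2030 (1.21 ± 0.21, limma adjusted p = 0.0029). Labelled H2030 against H1299 gave 0.05 ± 0.21 (limma adjusted p = 0.841), which was -0.21 under median-of-ratios scaling and -0.0044 under quantile normalization. There the call depended on 1 library: the difference was 0.43 (limma adjusted p = 0.00517) without the library with the HEK293T heading, and -0.33 (0.0212) without the empty-vector library of that pair. Each of these fits leaves 1 labelled H2030 library, assumed to vary like the A549 and H1299 libraries that alone give the spread.

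CDKN1C, the imprinted gene of p57 (chr11:2883213-2885773), was 0.12 and 0.06 FPKM in A549, 0.28 and 0.58 in H1299, and 2.0 and 1.35 in labelled H2030. With a mean of 0.73 FPKM it was not tested. The lines did not overlap, but A549 and H1299 rested on an estimated 1 to 11 fragments per library. Only the labelled H2030 pair exceeded 1 FPKM.

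The D cyclins ranked differently in the 3 lines. CCND1 (chr11:69641087-69654474) was 99.4 and 103 FPKM in A549, 68.7 and 67.8 in H1299, and 10.8 and 11.8 in labelled H2030. The lines did not overlap, and A549 held 8.94 times and H1299 6.04 times the mean FPKM of labelled H2030. The log2 difference of labelled H2030 was -3.05 ± 0.09 against A549 and -2.49 ± 0.09 against H1299 (limma adjusted p = 9.22e-06 and 1.88e-05). H1299 was lower than A549 by a log2 difference of -0.56 ± 0.09 (limma adjusted p = 0.0032). That last difference was -0.56 without the empty-vector and -0.56 without the malin library of A549, and -0.51 without the malin library of H1299, but no longer passed (limma adjusted p = 0.054, 0.0533 and 0.0695).

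CCND2 (chr12:4273772-4305350) showed the opposite order. It was listed at 0 in both A549 libraries, was 0.19 and 0.18 FPKM in H1299, and was 16.3 and 13.6 FPKM in labelled H2030. These are an estimated 0 fragments in A549, 13 and 11 in H1299, and 863 and 861 in labelled H2030. Labelled H2030 stood apart by a log2 difference of 3.99 ± 0.15 from A549 and 3.75 ± 0.15 from H1299 (limma adjusted p = 1.39e-05 and 2.12e-05), which at a pseudocount of 5 was 1.99 and 1.94. CCND2 reached the mean of 1 FPKM only through labelled H2030, so it had to differ from both lines. H1299 against A549 did not pass (0.24 ± 0.15, limma adjusted p = 0.191), but passed with a pseudocount of 0.1 (adjusted p = 0.0044) and with quantile normalization (0.0391).

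CCND3 (chr6:41934933-42050357) was 126 and 104 FPKM in A549, 48.5 and 47.9 in H1299, and 28.3 and 31.3 in labelled H2030. It followed the same line order as CCND1, with no overlap. A549 held 2.39 times the mean FPKM of H1299 and 3.86 times that of labelled H2030. The log2 differences were -1.23 ± 0.12 for H1299 and -1.91 ± 0.12 for labelled H2030 against A549, and -0.68 ± 0.12 for labelled H2030 against H1299 (limma adjusted p = 0.000441, 7.35e-05 and 0.0038).

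CDK4 (chr12:57747727-57756013) had the smallest ratio between its highest and its lowest library among the 10 genes. It was 105 and 107 FPKM in A549, 124 and 126 in H1299, and 162 and 118 in labelled H2030. A549 was lowest, and the labelled H2030 pair spanned the H1299 values. No contrast passed: H1299 against A549 gave 0.23 ± 0.14 and labelled H2030 against A549 gave 0.38 ± 0.14 (limma adjusted p = 0.196 and 0.0515). Labelled H2030 against H1299 gave 0.15 ± 0.14 (limma adjusted p = 0.382), and -0.12 under median-of-ratios scaling. These depended on the pair labelled H2030. Without the library with the HEK293T heading the 3 differences were 0.23, 0.63 and 0.39. Without the empty-vector library of that pair they were 0.23, 0.14 and -0.09. Labelled H2030 then rests on 1 library, so only the size is given for its differences. H1299 against A549 passed in both fits (limma adjusted p = 0.00184 and 0.0019). Labelled H2030 against A549 passed with quantile normalization (limma adjusted p = 0.0439). The exons of TSPAN31 on the other strand cover 1369 of the 3168 exon bases of CDK4. TSPAN31 was 9.29 to 22.6 FPKM, so exchange of fragments between the genes is possible.

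CDK6 (chr7:92604921-92836594) was the kinase that separated H1299. It was 8.61 and 10.3 FPKM in A549, 34.1 and 31.0 in H1299, and 12.01 and 11.23 in labelled H2030. H1299 lay above both others, by 3.45-fold over A549 (log2 1.69 ± 0.13, limma adjusted p = 0.000202) and 2.80-fold over labelled H2030 (labelled H2030 minus H1299 -1.41 ± 0.13, limma adjusted p = 0.000296). Labelled H2030 against A549 gave 0.28 ± 0.13 (limma adjusted p = 0.111), and -0.06 under median-of-ratios scaling. CDK6 has RefSeq transcripts of 1465 and 11612 bases, so its FPKM relative to CDK4 depends on the transcript length that was used.

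Added per library, the D cyclins were highest and the INK4 genes lowest in A549, and the INK4 sums of the other lines overlapped. Summed D cyclin FPKM was 225 and 207 in A549, 117 and 116 in H1299, and 55.5 and 56.7 in labelled H2030. Summed FPKM of the 3 INK4 genes was 8.80 and 10.6, 86.0 and 97.5, and 88.4 and 116 in the same order. Against these, CDK4 with CDK6 summed to 113 and 117, 158 and 157, and 174 and 130. The ratio of D cyclin to CDK4 and CDK6 messenger RNA was therefore 1.99 and 1.76 in A549, 0.74 and 0.74 in H1299, and 0.32 and 0.44 in labelled H2030. That of the 3 INK4 genes to CDK4 and CDK6 was 0.08 and 0.09, 0.55 and 0.62, and 0.51 and 0.89. These are ratios of messenger RNA, and the proteins were not measured.

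The makeup of each sum also differed by line. CDKN2C made up 99.0% and 99.7% of the summed FPKM of these 3 INK4 genes in A549, 18.5% and 16.7% in H1299, and 23.4% and 29.3% in labelled H2030. The INK4 sums, ratios and shares leave out CDKN2D, a further INK4 gene. It was 2.48 and 2.82 FPKM in A549, 16.3 and 18.0 in H1299, and 7.39 and 4.43 in labelled H2030. CCND1 was 44.1% and 49.6% of D cyclin FPKM in A549, 58.5% and 58.5% in H1299, and 19.5% and 20.8% in labelled H2030, where CCND2 was 29.4% and 24.1%. CDK6 was 21.6% and 19.8% of the kinase sum in H1299 and 6.88% to 8.74% in the other 4 libraries.

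**Figure D3:**
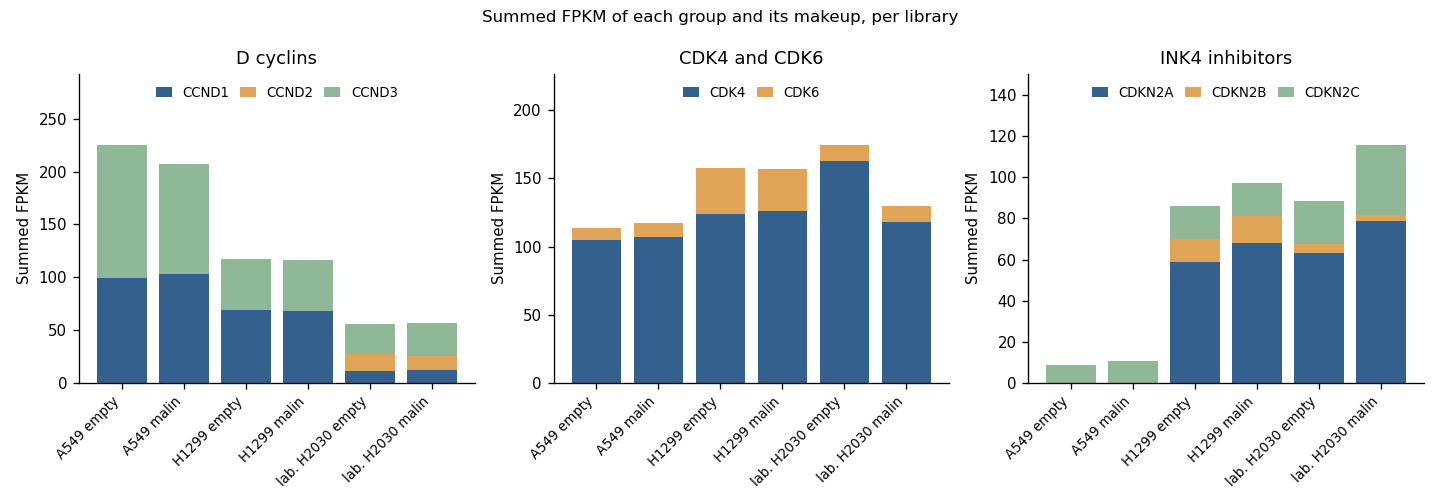
Summed FPKM of the D cyclins, of CDK4 and CDK6, and of the 3 INK4 inhibitors in each library, as stacked bars from 0 with 1 colour per gene. D cyclin bars fall from A549 (225 and 207) to labelled H2030 (55.5 and 56.7), and INK4 bars are low only in A549 (8.80 and 10.6).

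Read against all 12184 tested genes, differences between the lines were common. H1299 against A549 called 7 of the 9 tested members (5 higher, 2 lower), beside 61.6% of all genes. Labelled H2030 against A549 called 7 of 9 (5 higher, 2 lower), beside 67.0%. Labelled H2030 against H1299 called 6 of 9 (2 higher, 4 lower), beside 64.7%. CDKN2A, CDKN2B and CCND2 passed the filter through the lines where they were high, so a difference from A549, and for CCND2 also from H1299, was built into their being tested, and the counts are a description. The median log2 difference of the tested members was 0.69, 1.21 and 0.05 in the 3 contrasts, and of all genes 0.09, 0.29 and 0.22. Median-of-ratios scaling shifted the libraries by 0.13 in A549, 0.04 to 0.05 in H1299, and -0.18 to -0.23 in labelled H2030 (log2). The contrasts share libraries, and the libraries of a line differ in vector. More genes passed in each contrast whichever library of the pair labelled H2030 was left out. This rise was therefore not particular to the library with the HEK293T heading. The spread in such fits comes from the A549 and H1299 libraries alone. Without the library with the HEK293T heading, 8 of 9 members passed in each contrast, beside 77.1%, 75.6% and 73.7% of all genes.

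The malin vector gave no called difference in any of these genes. Over the 3 lines, 0 of the 9 tested members passed, as did 0 of 12184 genes (0.0%) by limma, and at an unadjusted p under 0.05 there were 0 members and 213 genes. All 9 members had limma adjusted p-values of 0.927 or more, which does not show that their levels were equal. CDKN2C came nearest: it was higher with malin in 3 of 3 lines, by log2 0.25 in A549, 0.04 in H1299 and 0.69 in labelled H2030, a mean of 0.33 ± 0.14 (SE; limma adjusted p = 0.927). Its p from the exact sign-flip permutation test, two-sided, was 0.25, which is the lowest possible with 3 pairs. Without the pair labelled H2030 the mean was 0.14 (limma adjusted p = 1). CDKN1B gave -0.14 ± 0.17 (limma adjusted p = 0.927), with 0.09, 0.14 and -0.64 in the 3 lines, and 0.12 without the pair labelled H2030. CDKN2A gave 0.13 ± 0.11 (limma adjusted p = 0.927) and turned to -0.13 at a pseudocount of 0.1. CCND1 gave 0.05 ± 0.08 (limma adjusted p = 0.941), and CDK6 gave 0.00 ± 0.11 (limma adjusted p = 0.998).

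Within a line there is no replicate of either vector, and a difference was counted from 1.5-fold on the FPKM + 1 scale. In A549 0 of 9 members reached it, beside 1.12% of all tested genes. In H1299 0 of 9 did, beside 0.476%. In labelled H2030 2 of 9 did, beside 11.6%. These were CDKN2C, at 20.6 and 33.9 FPKM with the empty and malin vector (1.64-fold), and CDKN1B, at 33.9 and 21.3 FPKM (0.63-fold). The exact binomial 95% interval of the CDKN1B ratio, for counting error only, was 0.56 to 0.71 on an estimated 719 and 540 fragments. CDK4 in that pair stood at a ratio of 0.73 (0.69 to 0.77), below the fold. In the same pair the 5 proliferation markers summed to 690 and 684 FPKM. Of these MKI67 (15.7 and 33.5), CCNB1 (52.6 and 102) and TOP2A (111 and 137) were higher with malin, PCNA was lower (393 and 292) and MCM2 was 117 and 120. Their part in the differences was not tested. The second of these libraries has the HEK293T heading, and vector and library identity cannot be told apart in the pair.

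**Figure D4:**
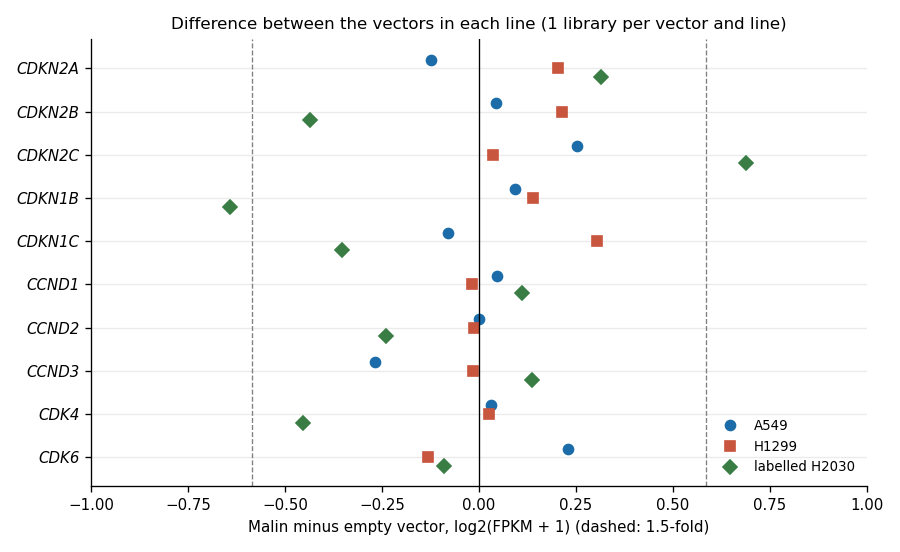
Difference between the malin and the empty-vector library of each line, on the log2(FPKM + 1) axis, for the 10 genes, with 1 point per line and dashed lines at 1.5-fold. Only CDKN2C and CDKN1B in labelled H2030 lie beyond the dashed lines, on opposite sides.

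The RB pathway around these genes was followed through 45 genes in 6 lists, all of which passed the filter. CCNA1 passed it only through H1299 and USP2 only through labelled H2030, so a difference of these lines from A549 was built in. With malin 0 of 45 passed over the 3 lines by limma, and the list median was -0.04 against -0.01 for all genes. Between lines, 19 were higher and 9 lower in H1299 than in A549, 28 higher and 6 lower in labelled H2030 than in A549, and 21 higher and 10 lower in labelled H2030 than in H1299. These are 62.2%, 75.6% and 68.9% of the 45, beside 61.6%, 67.0% and 64.7% of all tested genes.

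Among the RB family and E2F genes, 9 of 13 were higher in labelled H2030 than in A549 and 0 lower. Of all 12184 tested genes, 5478 were higher and 2689 lower there, together 67.0%. Of the 13 genes, 6 were higher and 1 lower in H1299 than in A549, beside 61.6% of all genes. Against H1299, 7 were higher and 3 lower in labelled H2030, beside 64.7%. RB1 itself was present in all lines, at 14.3 and 13.2 FPKM in A549, 19.4 and 17.8 in H1299, and 26.7 and 18.7 in labelled H2030. E2F2, an activating E2F, was 4.75 and 3.67 FPKM in A549, 4.85 and 4.92 in H1299, and 25.2 and 15.1 in labelled H2030 (labelled H2030 minus A549 log2 1.99 ± 0.19, limma adjusted p = 0.00029). Of the 6 genes for cyclins E and A, CDK2 and its activating phosphatase, 5 were higher and 1 lower in H1299 than in A549. The 5 include CCNA1, whose difference was built in by the filter. All tested genes gave 4199 higher and 3311 lower in that contrast, together 61.6%. Of the 6 genes, 4 were higher and 1 lower in labelled H2030 than in A549, beside 67.0% of all genes. Against H1299, 1 was higher and 1 lower in labelled H2030, beside 64.7%. CDC25A, that phosphatase, was 7.36 and 7.86 FPKM in A549, 18.2 and 19.2 in H1299, and 56.8 and 37.6 in labelled H2030 (log2 2.46 ± 0.19 against A549, limma adjusted p = 0.000126). CCNA1, the cyclin A gene best known from the germ line, was 10.1 and 12.2 FPKM in H1299 and 0.28 or less in the other 4 libraries. CDK7, the kinase that activates CDKs, was lowest in labelled H2030 at 15.9 and 14.2 FPKM, against 34.2 to 68.5 elsewhere.

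The remaining INK4 and CIP/KIP genes went in opposite directions against A549, and both were lower in labelled H2030 than in H1299 (log2 -1.42 and -1.23). CDKN2D, which encodes p19INK4d, was 2.48 and 2.82 FPKM in A549, 16.3 and 18.0 in H1299, and 7.39 and 4.43 in labelled H2030 (H1299 minus A549 log2 2.31 ± 0.22, limma adjusted p = 0.000375). CDKN1A, which encodes p21, was 57.9 and 65.1 FPKM in A549, 32.0 and 32.4 in H1299, and 19.3 and 8.93 in labelled H2030 (labelled H2030 minus A549 log2 -2.14 ± 0.28, limma adjusted p = 0.0011). A549 was thus highest for p21 and lowest for every INK4 gene measured.

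Of 10 genes for turnover of D cyclins and p27, 6 were higher and 1 lower in labelled H2030 than in A549. The 6 include USP2 (0.35 and 0.47 FPKM in A549, 4.25 and 6.64 in labelled H2030), whose difference was built in by the filter. All tested genes again gave 5478 higher and 2689 lower, together 67.0%. Of the 10 genes, 2 were higher and 2 lower in H1299 than in A549, beside 61.6% of all genes. Against H1299, 6 were higher and 1 lower in labelled H2030, beside 64.7%. SKP2, the F-box protein that directs p27 to degradation, was 11.04 and 12.16 FPKM in A549, 19.7 and 19.8 in H1299, and 61.2 and 61.9 in labelled H2030 (log2 2.31 ± 0.10 against A549, limma adjusted p = 2.45e-05). FBXW7, which targets cyclin E, was 3.0 to 4.14 FPKM in A549 and H1299 and 12.2 and 13.2 in labelled H2030. Of 11 regulators of the INK4 locus, 6 were higher and 2 lower in labelled H2030 than in A549, beside that same 67.0% and its split by direction. In H1299 against A549 3 were higher and 4 lower, beside 61.6% of all genes. Against H1299, 7 were higher and 2 lower in labelled H2030, beside 64.7%. BMI1, a Polycomb repressor of CDKN2A, was 11.8 and 17.6 FPKM in A549, 10.5 and 11.8 in H1299, and 44.01 and 33.84 in labelled H2030 (log2 1.36 ± 0.21 against A549, limma adjusted p = 0.0021). ETS1, an activator of p16INK4a, was 10.1 and 15.3 FPKM in A549, 48.8 and 43.0 in H1299, and 3.87 and 3.19 in labelled H2030. ID1, which opposes ETS-driven activation of p16INK4a, was 197 and 208 FPKM in A549, 121 and 106 in H1299, and 34.0 and 33.2 in labelled H2030 (log2 -2.56 ± 0.10 against A549, limma adjusted p = 1.73e-05).

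Within lines, 0 of the 45 pathway genes reached 1.5-fold between the vectors in A549 or H1299. In labelled H2030 0 were higher and 5 lower: E2F2 (log2 -0.70), E2F3 (-0.76), CDKN1A (-1.03), CDKN2D (-0.63) and FBXO4 (-0.78). That is near the 11.6% of all tested genes past the fold in this pair, of which 521 were higher and 893 lower. The median of the 45 genes there was -0.15, beside -0.03 for all tested genes.

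**Figure D5:**
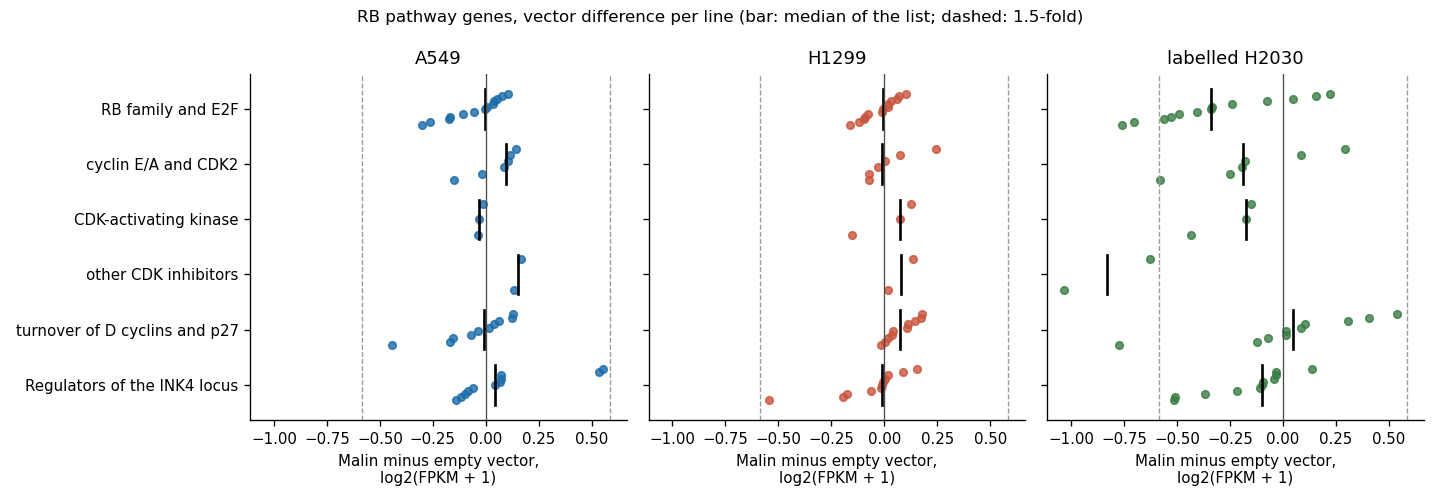
Malin minus empty-vector difference of the 45 RB pathway genes on the log2(FPKM + 1) axis, by list and line, with 1 point per gene, a bar at the list median and dashed lines at 1.5-fold. Points stay within 1.5-fold in A549 and H1299, and 5 fall below it in labelled H2030.

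For each of the 10 genes, the nearest of 54 others of these lists was found by distance on the log2(FPKM+1) scale over the 6 libraries, after centring. As the 6 libraries form 3 pairs, the correlations mostly restate line differences. CCND1 was nearest to ID1 (Pearson r 0.99), CDKN1B to CDK2 (0.98) and CCND2 to SKP2 (0.97). CDKN2A was nearest to CDKN2B (0.90), and CDKN2B and CDK6 to CDKN2D (0.96 and 0.96). The distance from CDKN2A to CDKN2B was 3.92, against 0.19 to 2.27 for the nearest genes of the other members. By r alone CDKN2A was closer to CDKN1B (0.94) than to CDKN2B. CDKN2C was nearest to EZH2 (0.95), CDK4 to MNAT1 (0.95), CCND3 to CDKN1A (0.89) and CDKN1C to RING1 (0.98). CCND1 and CCND2 ran opposite to each other (r -0.99).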

How the data were processed

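Gene-level FPKM values deposited by the authors were used, 1 table per library. Per the submitters' processing notes they came from STAR, Cufflinks, cutadapt and FastQC on build hg38. Versions are not given in the sources used here. Rows matched the RefSeq table of GRCh38.p14 by Entrez identifier for 19770 genes, 17541 of them protein coding. Protein-coding genes with a mean of at least 1 FPKM (12184) were fitted with limma 3.58.1 in R 4.3.3 on log2(FPKM + 1), with line and vector terms, an intensity trend and Benjamini-Hochberg adjustment at 0.05 over all tested genes (2 residual and a median of 3.9 prior degrees of freedom). That scale understates changes of low genes. The procedure was tested on simulated data. The tables hold no counts. Depth was estimated from low FPKM values of 3692 genes with 1 transcript: 77.7% to 80.4% lay within 0.2 of whole fragment numbers (40% by chance for a fixed step). Intervals cover counting error only.

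All 10 member genes are named. Of each pathway list, genes could be named that were among the 3 with the largest absolute vector difference or the largest range of line means; the relation of CCND1 to CCND2, TSPAN31 and the marker genes named were chosen after their values were seen. Members and lists were chosen with earlier results of these data known. Alternatives were other pseudocounts, filters and scalings, no trend, no line or vector term, another fold, and leaving out lines or libraries. Tables were handled in Python 3.11.15 (pandas 2.3.3, numpy 2.4.6, scipy 1.17.1) and drawn with matplotlib 3.10.9.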

Additional observations from a re-analysis of the deposited data

How the results depend on the processing

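Vector differences of single genes changed sign at a pseudocount of 0.1 for CDKN2A (-0.13) and CDKN2B (0.0232), and at 5 for CDK6 (-0.0071). Leaving out each line in turn gave -0.28 to 0.12 for CDKN1B, -0.20 to 0.13 for CDKN2B, -0.14 to 0.0612 for CCND3, -0.21 to 0.028 for CDK4 and -0.11 to 0.0697 for CDK6 (log2), and 0 to 1 genes passing (SULT1A3, without the pair labelled H2030); 0 members passed in these or any other setting, the fit with no replicate block included. Median-of-ratios scaling turned CDK6 to -0.0567 in labelled H2030 minus A549, and CDKN1B (-0.21), CDKN2A (-0.11) and CDK4 (-0.12) in labelled H2030 minus H1299, where quantile normalization gave -0.0044 for CDKN1B. Leaving out each library gave -0.33 to 0.43 for CDKN1B and -0.09 to 0.39 for CDK4 in that contrast, with 5227 to 8983 genes passing, and 4564 to 9393 genes in H1299 minus A549; these fits hold fewer samples. Members past the fold within a line numbered 1 in A549 at a pseudocount of 0.1 (CDKN2A) and, in labelled H2030, 1 at a pseudocount of 5, 1 with median-of-ratios scaling (CDKN2C in both) and 0 at 2-fold. Beyond the pseudocount, the scaling and the sample number, the cause was not tested. Genes below 1 FPKM rest on a few fragments.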
